A study of Mus musculus with 10 samples.

Results

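The 10 genes described here encode the core of transforming growth factor beta (Tgf-beta) signalling: the ligand gene Tgfb1, the receptor genes Tgfbr1, Tgfbr2 and Tgfbr3, the signal carriers Smad2, Smad3 and Smad4, the inhibitory Smad7, and the corepressors Ski and Skil. They were chosen by gene symbol, and all 24 probe sets that the platform annotation pairs with these symbols were taken, out of 45101 on the array. Expression was compared between 5 Mll-deficient samples (genotype Mx1-cre;Mll F/F) and 5 control samples (Mll F/F), with 1 array per sample. The samples are titled biological replicates. The mice were 8-week-old females of the B6.SJL-Ptprca Pep3b/BoyJ background, and both genotypes received 3 injections of pI:pC, each of 10 µg per gram of mouse plus 50 µg and spaced 48 hours apart. This double-stranded RNA mimic raises interferon, which switches on the Mx1 promoter, so that cre deletes the floxed Mll alleles (gene symbol Kmt2a) in interferon-responsive cells and not in blood stem cells alone. On day 6, marrow was sorted for LSK/CD48- cells, a fraction enriched for haematopoietic stem cells, and RNA from 1500 to 10000 cells was amplified. Control mice carried no cre, so that cre itself and loss of Mll cannot be told apart.

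Tgf-beta is secreted in a latent form and acts once released. The active ligand binds the type II receptor Tgfbr2, which then phosphorylates the type I receptor Tgfbr1, while Tgfbr3 (betaglycan) presents ligand to the complex. Tgfbr1 phosphorylates Smad2 and Smad3, which join Smad4 and enter the nucleus to control target genes. Smad7 blocks the receptor, and Ski and SnoN, the product of Skil, hold Smad complexes in a repressed state. Smad7 and Skil are themselves induced by the signal and so act as feedback inhibitors. In bone marrow, Tgf-beta is known as a signal that keeps stem cells out of division.

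For 5 of the 10 genes (Tgfb1, Tgfbr1, Tgfbr2, Smad3 and Ski) RefSeq gave a promoter entry on GRCm38.p6. Tgfbr3, Smad2, Smad4, Smad7 and Skil were not matched. The 250 bases before the transcription start are printed for the pair of genes that form the receptor, the first of the 2 Tgfbr1 entries being shown, and for Acvr1b, the activin type I receptor gene whose fall is described further on. Each sequence runs 5′ to 3′ on the gene's strand. Capitals mark every match, on either strand, to GGGCGG (the GC box, to which Sp1 family factors bind) or to CAGAC (the core of the Smad-binding CAGA box).
Tgfbr1, chr4:47352972-47353221, plus strand: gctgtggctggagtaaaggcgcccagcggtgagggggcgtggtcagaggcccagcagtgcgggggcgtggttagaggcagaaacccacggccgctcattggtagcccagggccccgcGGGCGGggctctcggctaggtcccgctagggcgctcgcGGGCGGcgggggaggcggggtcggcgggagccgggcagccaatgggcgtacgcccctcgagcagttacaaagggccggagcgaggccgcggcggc
Tgfbr2, chr9:116175364-116175613, minus strand: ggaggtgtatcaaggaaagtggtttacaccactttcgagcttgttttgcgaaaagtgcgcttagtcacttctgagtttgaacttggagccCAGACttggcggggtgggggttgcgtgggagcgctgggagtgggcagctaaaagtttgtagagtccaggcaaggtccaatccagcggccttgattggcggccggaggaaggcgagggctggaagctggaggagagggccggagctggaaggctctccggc
Acvr1b, chr15:101173822-101174071, plus strand: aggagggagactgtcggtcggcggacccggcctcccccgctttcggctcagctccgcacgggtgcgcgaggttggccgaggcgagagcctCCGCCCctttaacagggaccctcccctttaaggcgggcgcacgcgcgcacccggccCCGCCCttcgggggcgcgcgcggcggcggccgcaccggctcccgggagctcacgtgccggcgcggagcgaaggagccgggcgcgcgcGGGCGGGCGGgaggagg
The Tgfbr1 window held 2 GC boxes and no CAGAC, and 74.8% of its bases were G or C. The other Tgfbr1 entry, at chr4:47385966-47386215 on the plus strand and not printed, held no GC box and 1 CAGAC, with 52.8% G or C. The Tgfbr2 window held no GC box and 1 CAGAC, which begins 160 bases before the start, with 58.4% G or C. The Acvr1b window held 4 GC boxes, of which the last 2 overlap each other, with 78.8% G or C. Over all 32851 RefSeq windows of this length, 32.7% held a GC box and 42.2% a CAGAC on either strand, and the median G or C content was 52.4%. These matches describe the letters only; binding was not measured.

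The arrays differed in the measure of RNA quality used here. As the RNA was amplified, this measure cannot tell RNA quality from effects of amplification. The log2 ratio of 3′ to middle probe sets of Gapdh and Actb, a measure of RNA quality that is higher where RNA is shorter, was 2.97 ± 1.42 in controls and 3.16 ± 0.60 in Mll-deficient samples (SD, n = 5 each, two-sided exact permutation p = 0.810). Replicate 5 was the highest of each group, at 5.24 in controls and 3.87 in Mll-deficient samples. The differences of the 10 genes are also given without control replicate 5. Those of other pathway genes are given where its removal ended or made a call or moved the value by over 1.5 times.

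Of the 10 genes, only Skil passed the test, and it was lower in Mll-deficient cells. Smad4 and Tgfbr1 came next, at -0.59 ± 0.20 and -0.66 ± 0.24 (SE) on the log2 scale, and neither passed. Tgfb1 and Smad2 lay near 0. In the limma test over 12580 genes, each represented by its brightest probe set, 1 of the 10 was called lower and 0 higher, and 3 had an unadjusted p below 0.05, beside 20.7% of all tested genes. Of all tested genes, 5.52% were called at an adjusted p of 0.05, with 3.76% higher (473 genes) and 1.76% lower (221 genes), so that 1 call among 10 genes is no result about the group. With arrays centred on their medians the calls were 471 higher and 107 lower. The differences, Mll-deficient minus control, were below 0 for 8 of the 10, beside 53.4% of all tested genes. Their median was -0.38, beside -0.04 for all tested genes. The arrays of both groups were separated without overlap for 1 of the 10 genes, Skil, where 6.96% of all tested genes were separated in this way.

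**Figure D1:**
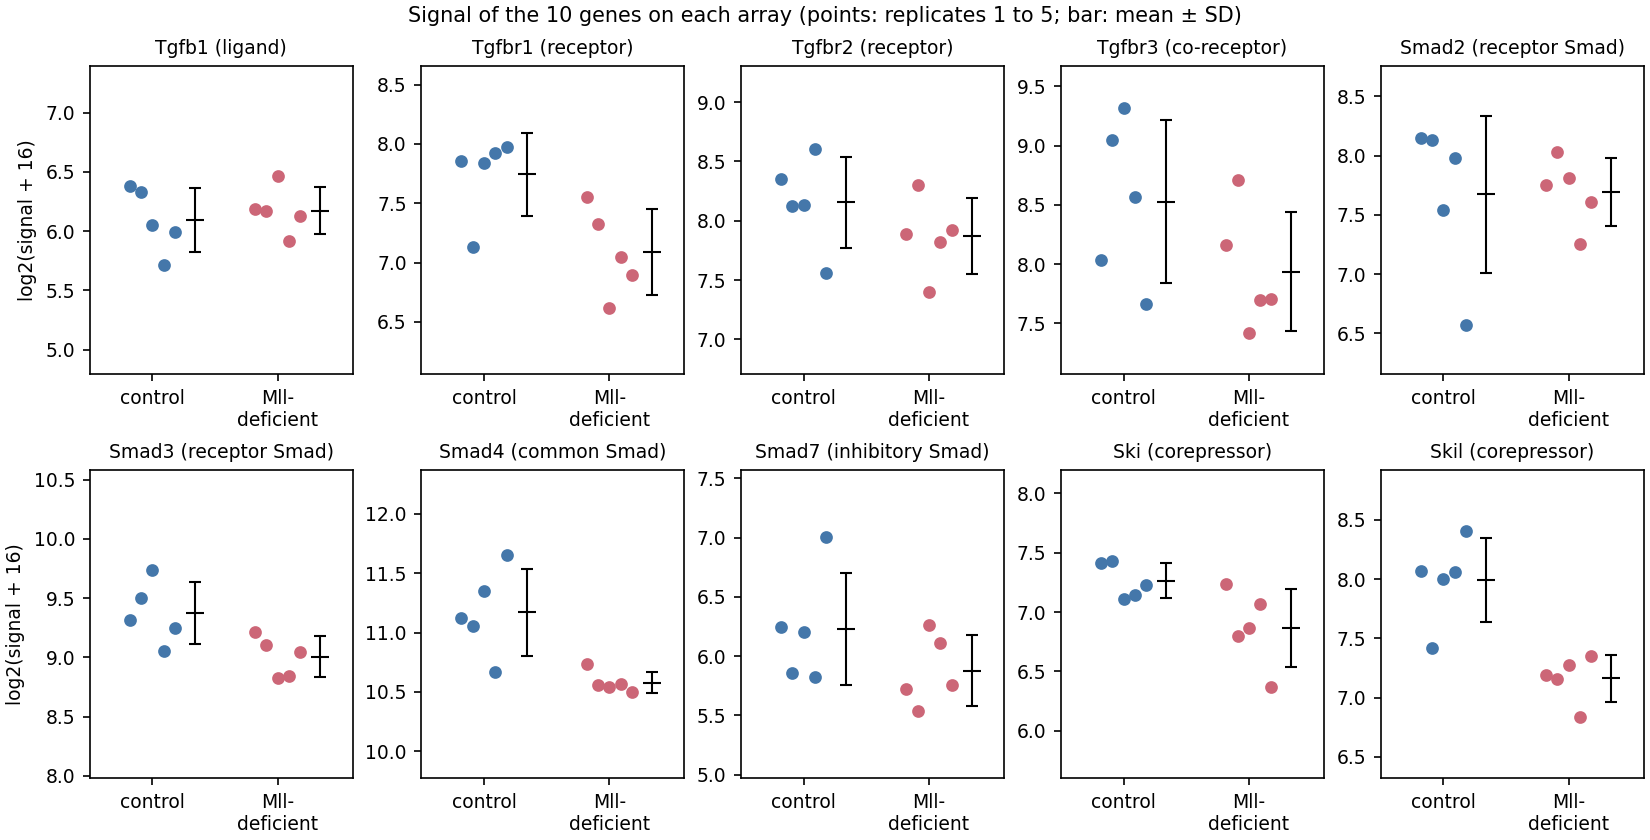
Signal of the brightest probe set of each gene on each array, as log2(signal + 16), for 5 control and 5 Mll-deficient samples. Each panel has its own vertical scale. Points are arrays in the order of replicates 1 to 5, and bars are mean ± SD.  The points of Skil do not overlap between the groups, and the Mll-deficient points of Smad4 lie within an SD of 0.09.

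Skil encodes SnoN, a corepressor that binds Smad complexes and is degraded and then induced again when the signal is received. Its brighter probe set, 1452214_at, read 253, 155, 241, 251 and 323 in control replicates 1 to 5. It read 130, 127, 139, 98.3 and 147 in Mll-deficient replicates 1 to 5. The lowest control lay above the highest Mll-deficient sample by a small margin, and the remaining controls stood well clear. The means were 245 ± 59.7 and 128 ± 18.6 (SD, n = 5 each), and the log2 difference was -0.83 ± 0.22 (SE, 95% interval -1.30 to -0.36, adjusted p = 0.0377). The call was narrow. Tested among all 27022 probe sets above the brightness filter in place of genes, the same probe set had an adjusted p of 0.0528. Without 1 array the adjusted p lay between 0.0158 and 0.0895, and the call held only without control replicate 2.

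The second Skil probe set, 1422054_a_at, was dim, at 23.3 ± 14.1 in controls and 20.0 ± 7.47 in Mll-deficient samples (SD, n = 5 each), with a difference of -0.08 ± 0.26 (adjusted p = 0.911). Within each array, the log2 ratio of this probe set to the brighter one differed by 0.75 ± 0.29 between the groups (unadjusted p = 0.0217, adjusted p = 0.525 over 9693 such pairs of all genes, in limma). Averaging both probe sets took the Skil difference to -0.46 (adjusted p = 0.162). Which transcripts each probe set reads was not analysed here.

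Ski, the founding member of the same corepressor family, read 154, 157, 122, 126 and 134 in controls and 135, 95.1, 101, 118 and 66.4 in Mll-deficient samples at 1429192_at. The highest Mll-deficient sample, replicate 1, lay within the control range, and replicate 5 was the lowest of all. The difference was -0.40 ± 0.22 (SE, 95% interval -0.86 to 0.06, adjusted p = 0.311). Its dimmer probe set, 1426373_at, was at -0.06 ± 0.29 (adjusted p = 0.943).

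**Figure D2:**
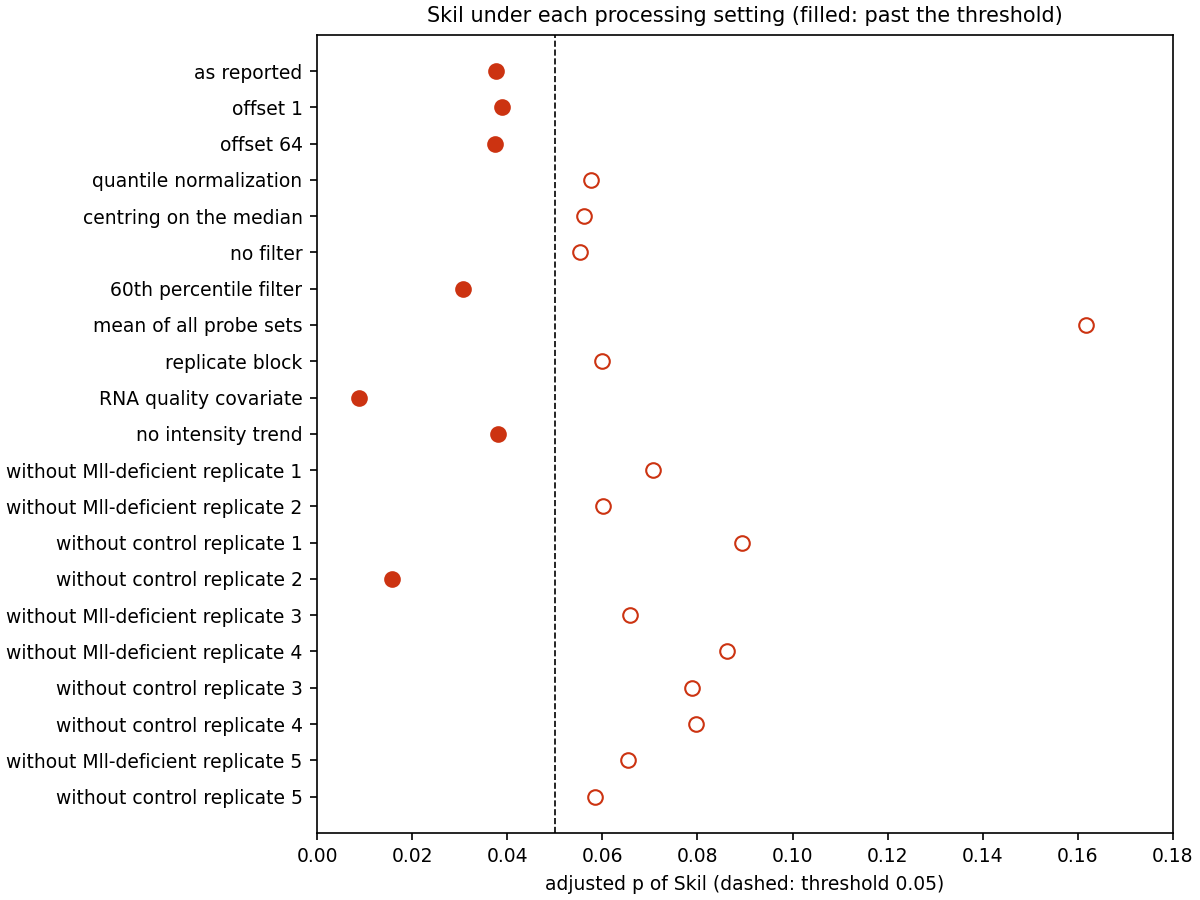
Adjusted p of Skil in the gene test as reported, under 10 other processing settings and without each of the 10 arrays in turn; the horizontal axis is the adjusted p, the dashed line is the threshold of 0.05, and filled points are past it. Of the 10 settings that kept all arrays, 5 passed, and of the fits that left out an array, 1 passed.

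Tgfb1, which encodes the ligand that names the pathway, did not differ beyond the spread between arrays. Its probe set 1420653_at read between 36.5 and 67.1 (median 50.5) in controls and between 44.5 and 72.5 (median 56.0) in Mll-deficient samples, and both ranges largely coincide. The difference was 0.08 ± 0.21 (SE, 95% interval -0.37 to 0.53, adjusted p = 0.883). The other probe set, 1445360_at, varied more, from 24.1 to 115 in controls and from 15.2 to 107 in Mll-deficient samples, with a difference of -0.20 ± 0.36 (adjusted p = 0.822).

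Of the receptors, Tgfbr1 had the lowest unadjusted p. This type I receptor gene read 216, 124, 213, 227 and 236 in control replicates 1 to 5 at 1420895_at, and 172, 145, 82.1, 116 and 103 in Mll-deficient replicates 1 to 5. Control replicate 2 sat far below the other controls and inside the Mll-deficient range, and each of the other controls exceeded every Mll-deficient sample. The means were 203 ± 45.3 and 123 ± 35.2 (SD, n = 5 each), with a difference of -0.66 ± 0.24 (SE, 95% interval -1.17 to -0.15, unadjusted p = 0.0143, adjusted p = 0.125). Without control replicate 2 the difference was -0.81 (adjusted p = 0.0527, the lowest over the fits without 1 array, which reached 0.259). Its remaining pair of probe sets, 1420893_a_at and 1420894_at, lay below the filter at 0.38 ± 0.24 and 0.23 ± 0.16, and the mean over all of its probe sets differed by -0.02 (adjusted p = 0.968).

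Tgfbr2, the type II receptor gene that binds ligand first, ranged from 173 to 373 (median 264) in controls and from 153 to 300 (median 222) in Mll-deficient samples at 1426397_at. The ranges overlap over most of their length. The difference was -0.29 ± 0.24 (SE, 95% interval -0.79 to 0.22, adjusted p = 0.539). Tgfbr3, the co-receptor gene, was the most variable of the 10. It read 246, 513, 623, 362 and 187 in controls and 270, 402, 155, 191 and 193 in Mll-deficient samples at 1433795_at, a difference of -0.59 ± 0.32 (SE, 95% interval -1.26 to 0.09, adjusted p = 0.315). Although as large as that of Smad4, this difference came with within-group SDs of 0.69 and 0.51 on the log2 scale.

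Smad4, the common partner of the receptor-activated Smads, was read by 3 probe sets that were all lower on average in Mll-deficient cells. The brightest, 1422486_a_at, read 2218, 2106, 2591, 1608 and 3208 in control replicates 1 to 5. It read 1684, 1492, 1471, 1499 and 1428 in Mll-deficient replicates 1 to 5. The Mll-deficient samples lay close together and all controls but replicate 4 were above them. The means were 2346 ± 596 and 1515 ± 98.6 (SD, n = 5 each), a difference of -0.59 ± 0.20 (SE, 95% interval -1.01 to -0.17, unadjusted p = 0.00915, adjusted p = 0.0988). The other probe sets, 1422487_at and 1422485_at, differed by -0.48 ± 0.22 and -0.41 ± 0.30 (adjusted p = 0.250 and 0.513). Control replicate 5 was the highest control at the first pair of probe sets and the lowest of all 10 arrays at 1422485_at, with 266. In a fit that also held the 3′ ratio as a covariate, Smad4 passed, at -0.62 (adjusted p = 0.0157), while over the other settings and the fits without 1 array the adjusted p lay between 0.0549 and 0.206.

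Smad3 and Smad2 carry the signal from the receptor. Smad3 read 620, 709, 838, 515 and 593 in controls and 579, 535, 437, 443 and 513 in Mll-deficient samples at 1454960_at, and the groups overlap between 515 and 579. The difference was -0.36 ± 0.20 (SE, 95% interval -0.78 to 0.05, adjusted p = 0.310). Its dimmer probe set 1450472_s_at was at -0.12 ± 0.27 (adjusted p = 0.867). Smad2 had no difference beyond error at either probe set, with 0.02 ± 0.29 at 1420634_a_at (SE, 95% interval -0.59 to 0.63, adjusted p = 0.981) and 0.09 ± 0.30 at 1442062_at (adjusted p = 0.917). Control replicate 5 read 79.0 at the brighter Smad2 probe set where the other controls lay between 170 and 268, and without it the difference was -0.26 (adjusted p = 0.542). Whether Smad2 and Smad3 responded differently was not tested.

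Smad7, the inhibitory Smad that returns the receptor to rest, was dim on these arrays. At 1423389_at it ranged from 40.7 to 112 (median 57.5) in controls and from 30.4 to 60.7 (median 37.9) in Mll-deficient samples, and control replicate 5 alone exceeded 60.7. The difference was -0.35 ± 0.26 (SE, 95% interval -0.89 to 0.19, adjusted p = 0.479), and without control replicate 5 it was -0.16 (adjusted p = 0.740). A second probe set, 1443771_x_at, was at -0.32 ± 0.23 (adjusted p = 0.510). Its suffix marks probes that can cross-hybridise with other transcripts.

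Among all 24 probe sets, 18 were above the brightness filter and 6 were below it. Of the 18, 0 passed limma over 27022 probe sets, of which 3.28% were called, and 4 had an unadjusted p under 0.05, beside 18.3% of all. Separation without overlap was seen for 1 of the 18 (Skil), beside 5.68% of all. Differences were below 0 for 15 of the 18. The 6 dim ones comprised 2 of Tgfbr1, 2 of Tgfbr2, 1 of Tgfbr3 and 1 of Smad3, with mean signals between 2.66 and 10.2. In a fit without a filter they differed by between -0.27 and 0.38, 4 above 0 and 2 below, with adjusted p of 0.568 or more. For 8 further probe sets above the filter, the within-array ratio to the brightest one of the same gene was compared between the groups. None of these 8 pairs passed, 1 (Skil) had an unadjusted p below 0.05, and 0.031% of all 9693 pairs were called.

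**Figure D3:**
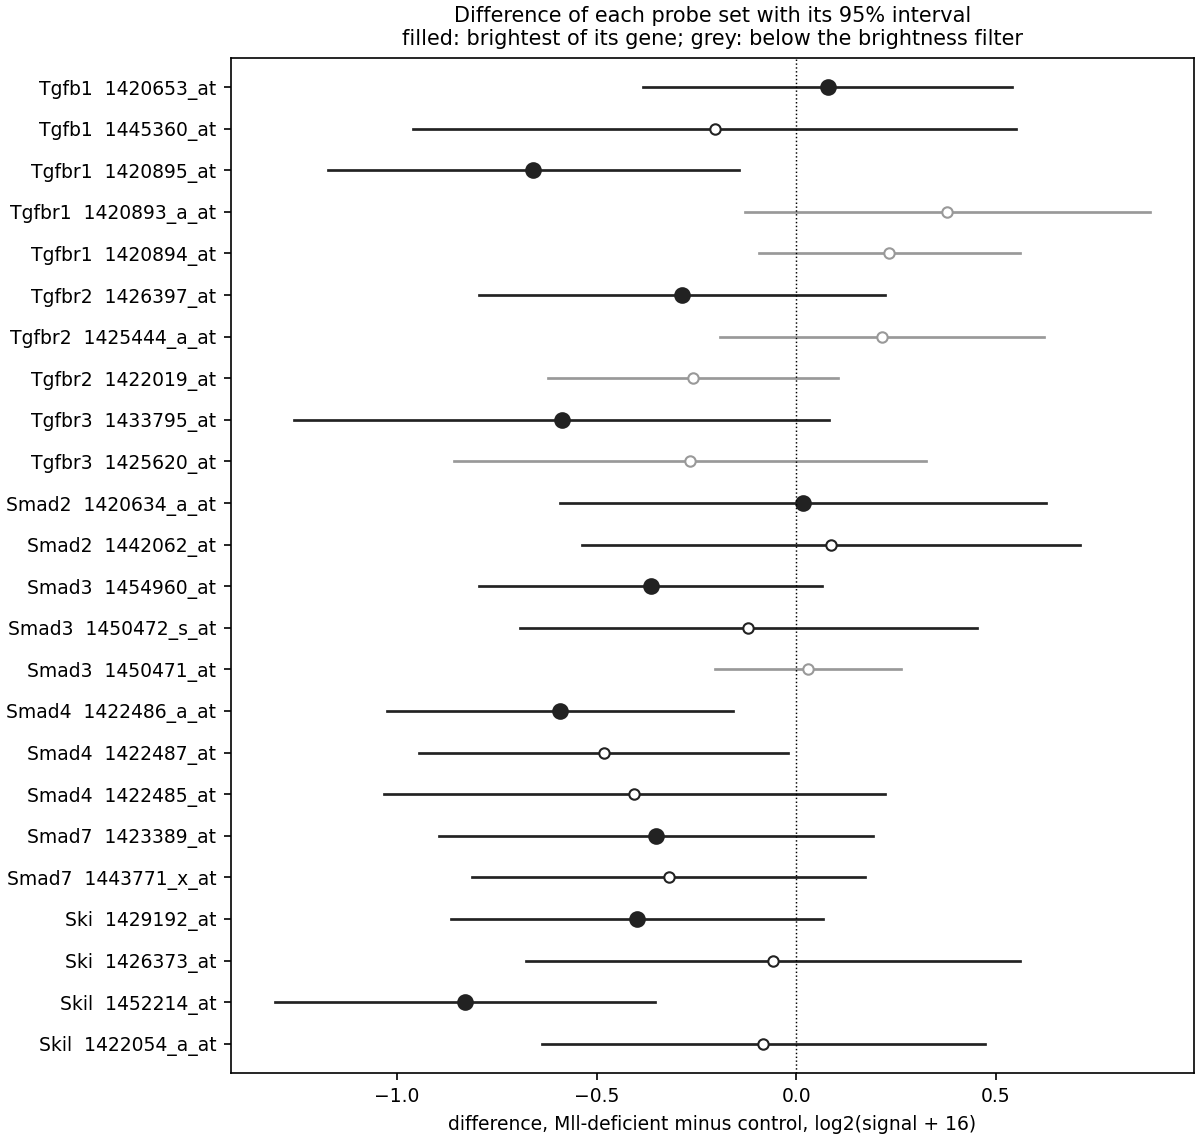
Difference of each of the 24 probe sets, Mll-deficient minus control in log2(signal + 16), with its 95% interval from the model. Filled points are the brightest probe set of each gene, and grey marks the 6 below the brightness filter, taken from the fit without a filter. The intervals of the brightest probe sets of Skil, Smad4 and Tgfbr1 and of the second Smad4 probe set lie below 0.

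All 10 arrays had a trimmed mean signal of 150.001, and any pair of arrays correlated at 0.896 to 0.969 across genes. Both Kmt2a probe sets were lower on average without passing (-0.38 ± 0.36 and -0.55 ± 0.30, adjusted p = 0.634 and 0.347), and whether they lie in the deleted part was not analysed here. Control replicate 5, the array with the 3′ ratio of 5.24, was the highest control for 4 of the 10 genes (Tgfbr1, Smad4, Smad7 and Skil) and the lowest for 3 (Tgfbr2, Tgfbr3 and Smad2). Without it the differences were -0.73 for Skil (adjusted p = 0.0585), -0.47 for Smad4 (0.133), -0.60 for Tgfbr1 (0.167), -0.43 for Tgfbr2 (0.268) and -0.80 for Tgfbr3 (0.118). They were -0.39 for Smad3 (0.265), -0.41 for Ski (0.310) and 0.05 for Tgfb1 (0.920), and those of Smad2 and Smad7 stand with these genes. The part of RNA quality in these differences was not tested beyond that and the covariate fit, in which Skil was at -0.86 (adjusted p = 0.0089).

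Markers of other blood cells moved between the groups too. Of 10 tested erythroid genes, 8 rose and 0 fell in Mll-deficient cells, and their summed signal was 1023 to 5840 in controls and 9417 to 13498 in Mll-deficient samples. Of 10 megakaryocyte and platelet genes 1 rose and 0 fell, but 8 had a difference below 0, with a median of -0.39, 4 at an unadjusted p under 0.05, and sums of 3061 to 7142 and 2961 to 4679. Of 11 stem cell and sort gate genes 1 fell, 9 had a difference below 0, with a median of -0.34, 5 at an unadjusted p under 0.05, and sums of 2266 to 5584 and 1476 to 3425. Both medians lay close to the -0.38 of the 10 genes. Of all tested genes, 53.4% were below 0 and 20.7% had an unadjusted p under 0.05 in limma. Medians of the other lists were 1.56 (erythroid, 0 of 10 below 0), 0.16 (granulocyte and monocyte, 4 of 11) and -0.0029 (B cell, 5 of 9). They were 0.21 for T and natural killer cells (2 of 7 below 0) and -0.21 for stroma and endothelium (6 of 7). For 11 granulocyte and monocyte genes 0 passed in limma (4 at an unadjusted p under 0.05), with sums of 83500 to 131765 and 94518 to 153808. Among 9 B cell genes and 7 genes of stroma and endothelium 0 passed (0 and 0 at an unadjusted p under 0.05), with sums of 1028 to 6733 against 1504 to 5067 and of 307 to 941 against 334 to 556. Of 7 T and natural killer cell genes 1 fell, with sums of 771 to 1164 and 746 to 1806. The part of these shifts in the differences of the 10 genes, the fall of Skil included, was not tested. In such bulk samples, fewer cells of a type and less RNA per cell cannot be told apart. Of the gate genes, Kit was read at 126 ± 34.2 in controls by its brighter probe set and at 72.3 ± 27.0 in Mll-deficient samples. It did not pass in limma over probe sets (-0.73 ± 0.27, adjusted p = 0.155). The lowest control (101) lay above the highest Mll-deficient sample (94.1), a separation that 5.68% of all tested probe sets had. The dimmer Kit probe set overlapped between the groups, at -0.33 ± 0.21 (adjusted p = 0.440). Cd48 was still read at 109 ± 63.1 in controls (0.25 ± 0.33, adjusted p = 0.746).

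Of 103 tested genes from the rest of the pathway, 4 fell, 1 rose and 98 did not pass. That is 4.85%, beside the 5.52% of all tested genes, and their median was -0.21. By direction, 4 of 103 fell, beside 1.76% of all tested genes, and 1 of 103 rose, beside 3.76%. The falls were Smad1, Ep300, Itgav and Acvr1b, and the rise was Mmp14. The arrays of both groups were separated without overlap for 7 of the 103, beside 6.96% of all tested genes. Xpo4, which did not pass, was among these 7. The lists held 134 genes, of which 127 had a probe set named for them alone.

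Among ligands and the proteins that release them, 1 of 13 fell and 1 rose. Itgav, the integrin alpha v subunit that pulls Tgf-beta out of its latent complex, read 408, 319, 533, 376 and 613 in controls and 197, 235, 200, 294 and 192 in Mll-deficient samples. These groups do not overlap, and the difference was -0.94 ± 0.22 (SE, adjusted p = 0.0225). Mmp14, a membrane metalloprotease, read 44.2, 81.2, 126, 49.4 and 67.2 in controls and 214, 109, 230, 169 and 99.1 in Mll-deficient samples. It rose by 1.01 ± 0.29 (adjusted p = 0.0494), with overlap at control replicate 3. Its call was lost in 8 of the 10 fits without 1 array, all but those without control replicate 3 or Mll-deficient replicate 2 (adjusted p 0.0336 to 0.131), and that of Itgav in 4, those without control replicate 3 or Mll-deficient replicate 1, 3 or 5 (0.0149 to 0.0653). With all arrays kept, the call of Mmp14 was also lost with offset 1 (0.0537), centring on the median (0.0523), no filter (0.0832) and no intensity trend (0.0509), among the adjusted p of 0.0256 to 0.0832 over these settings. Next in p were Fst, the activin inhibitor follistatin (-0.65 ± 0.26, adjusted p = 0.164), Ltbp3, which encodes a latent Tgf-beta binding protein (-0.60 ± 0.29, adjusted p = 0.251), and Bmp4 (-0.45 ± 0.25, adjusted p = 0.334). None of these 3 passed.

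Among other receptors, 1 of 11 fell. Acvr1b encodes Alk4, an activin type I receptor that, like Tgfbr1, phosphorylates Smad2 and Smad3. It read 864, 629, 872, 586 and 888 in controls and 412, 516, 410, 394 and 320 in Mll-deficient samples, without overlap, a difference of -0.87 ± 0.21 (SE, adjusted p = 0.0216). Without 1 array the adjusted p lay between 0.020 and 0.0684, and the call was lost in 3 of 10 such fits, those without control replicate 1 or 3 or Mll-deficient replicate 5. The bone morphogenetic protein (BMP) receptor genes Bmpr2 (-0.84 ± 0.26, adjusted p = 0.0728) and Bmpr1a (-0.83 ± 0.31, adjusted p = 0.130) and the endothelial type I receptor gene Acvrl1 (-0.75 ± 0.42, adjusted p = 0.327) did not pass.

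Of the 3 other Smads tested, Smad1 fell. This carrier of BMP signals read 871, 1116, 1638, 985 and 2283 in controls and 300, 711, 381, 813 and 638 in Mll-deficient samples. All controls were above all Mll-deficient samples, and the difference was -1.25 ± 0.31 (SE, adjusted p = 0.0259). Another Smad1 probe set above the filter was at -0.58 ± 0.28 (adjusted p = 0.287). Smad5, its close relative, was at -0.17 ± 0.31 (adjusted p = 0.814), and at -0.42 without control replicate 5 (adjusted p = 0.384). Smad6, an inhibitory Smad, was at -0.22 ± 0.31 (adjusted p = 0.753). It was at -0.56 without control replicate 1 (adjusted p = 0.200) and at -0.06 without control replicate 3 (adjusted p = 0.951), the lowest and highest over such fits. The call of Smad1 was lost in 4 of the 10 fits without 1 array, the same arrays as for Itgav (adjusted p 0.0220 to 0.0729), and in the mean of its probe sets (-0.65, adjusted p = 0.0723). The mean of all probe sets also ended the calls of Itgav (-0.24, adjusted p = 0.449), Acvr1b (-0.28, adjusted p = 0.277) and Mmp14 (0.57, adjusted p = 0.0662), whose further probe sets all lay below the filter. Under the same setting Bmpr2 (-0.79, adjusted p = 0.0238), Kat2b (-0.67, adjusted p = 0.0106) and Fst (-0.66, adjusted p = 0.0324) passed, so that the lists held 4 calls.

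Of 33 modifiers of receptors and Smads, 0 passed in limma and 5 had an unadjusted p under 0.05, beside 20.7% of all tested genes. The nearest were Strap, which holds Smad7 at the receptor (0.77 ± 0.23, adjusted p = 0.0592), the exportin gene Xpo4 (0.76 ± 0.22, adjusted p = 0.0592) and Pmepa1, a feedback inhibitor that sequesters Smads (-0.83 ± 0.27, adjusted p = 0.0834). Strap passed in 5 of the 10 settings that kept all arrays, and Xpo4 in 4 of the 10. Without Mll-deficient replicate 2 both passed (0.88 and 0.85, adjusted p = 0.0399 and 0.0487). Strap also passed without control replicate 5 (0.91, adjusted p = 0.0152). Of 24 nuclear partners and corepressors, 1 fell. Ep300, the acetyltransferase p300 that Smad complexes recruit, read 906, 444, 566, 791 and 543 in controls and 356, 410, 190, 415 and 175 in Mll-deficient samples, a difference of -1.07 ± 0.28 (SE, adjusted p = 0.0350). The lowest control and the highest Mll-deficient sample were close to each other, and 6 of the 10 fits without 1 array lost the call, those without control replicate 1, 3 or 4 or Mll-deficient replicate 1, 3 or 5 (adjusted p 0.0244 to 0.102). Centring on the median ended it too (adjusted p = 0.0701). Kat2b, another acetyltransferase gene (-0.72 ± 0.22, adjusted p = 0.0722), Sp1, the GC box factor (-0.63 ± 0.23, adjusted p = 0.122), and Zeb1, a repressor (-0.47 ± 0.20, adjusted p = 0.177), did not pass.

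Of 19 known target genes, 0 passed in limma and 3 had an unadjusted p under 0.05, beside 20.7% of all tested genes. Differences were below 0 for 17 of the 19, beside 53.4% of all tested genes. The median was -0.37, beside -0.04 for all tested genes. The list was not split by whether Tgf-beta raises or lowers each gene, and whether signalling itself differed was not tested. Id2, an inhibitor of basic helix-loop-helix factors, was at -0.67 ± 0.25 (adjusted p = 0.138). Ier3 was at -0.95 ± 0.41 (adjusted p = 0.193), and control replicate 5 read 5722 where the other controls lay between 669 and 1408, so that its difference without that array was -0.45. Cdkn1c, the p57 inhibitor of the cell cycle linked to stem cell quiescence, was at -0.68 ± 0.29 (adjusted p = 0.195).

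**Figure D4:**
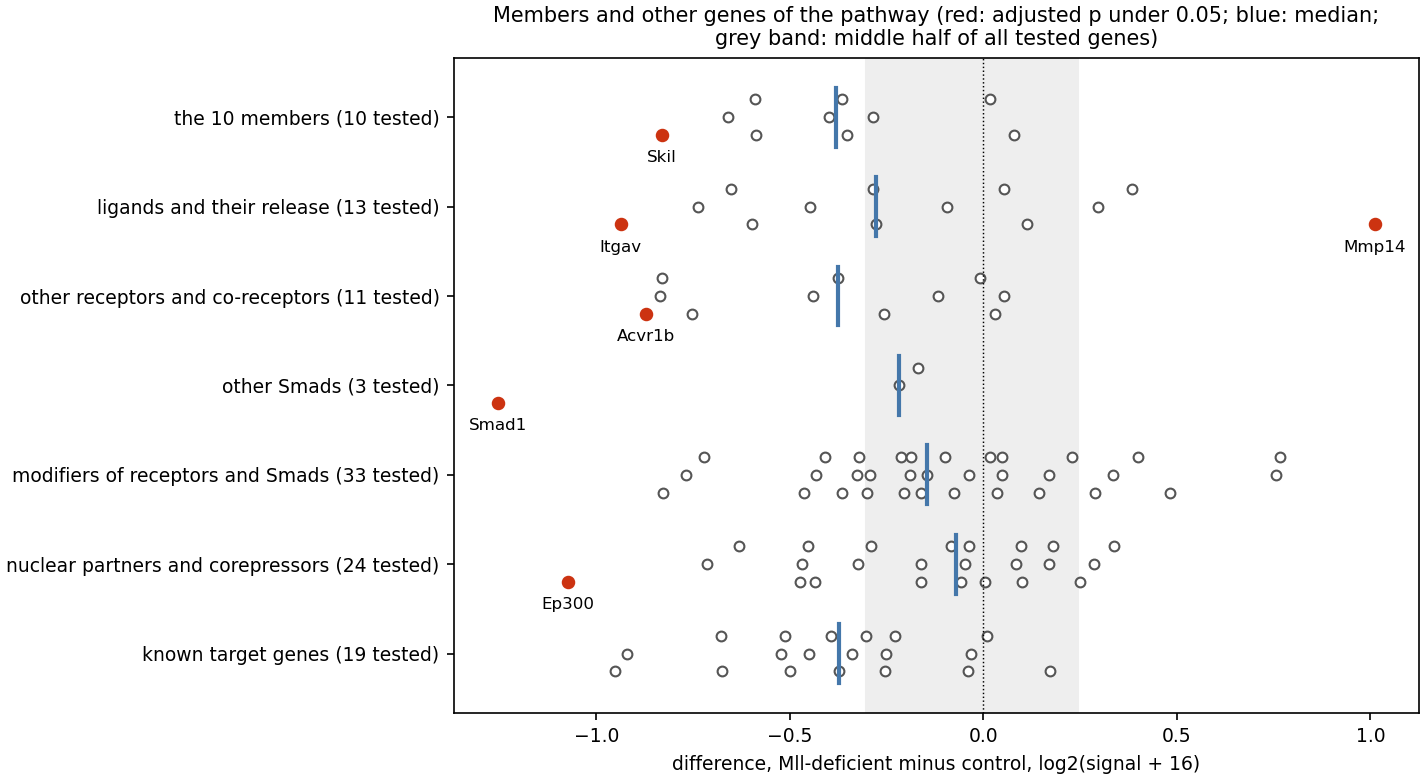
Difference of each tested gene, Mll-deficient minus control in log2(signal + 16), for the 10 genes and for 6 lists of other pathway genes. Red points passed the test and are named, blue lines are medians, and the grey band runs from the lower to the upper quartile of all tested genes, -0.30 to 0.24. The medians lie between -0.38 (the 10 genes) and -0.07 (nuclear partners and corepressors).

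The genes whose pattern over the 10 arrays was nearest to that of Skil, by the root mean square distance between centred log2 values, were Cytip (0.21), Mtmr3 (0.21) and Tmcc1 (0.22), where the median over all tested genes was 0.61. Cytip, which encodes a cytohesin-binding protein of blood cells, read 4300, 3148, 3936, 4037 and 5721 in controls and 1858, 2142, 2396, 2610 and 2517 in Mll-deficient samples. As for Skil, replicate 2 was the lowest control and replicate 5 the highest. Cytip fell by 0.85 ± 0.20 (adjusted p = 0.0188). Mtmr3, a phosphoinositide phosphatase gene, and Tmcc1 were at -0.51 ± 0.19 and -0.44 ± 0.20 (adjusted p = 0.141 and 0.227) and did not pass. Among the 10 genes themselves, Smad4 and Tgfbr1 lay nearest to Skil (both 0.31) and Smad2 farthest (0.75). These distances share the arrays and the group difference, and are a description.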

How the data were processed

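RNA of sorted LSK/CD48- cells was measured on Affymetrix mouse expression arrays. The authors deposited one linear signal intensity for each probe set and array. The submitters' processing notes name MAS5 5.0, and the trimmed mean (2% off each end) was the same on every array. The genome build and annotation are not given in the sources used here, and no detection calls were used. Array number limits the precision.

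Here, probe sets with 1 symbol in the platform annotation (34945, with 932 of several symbols and 9211 unnamed) were renamed through Entrez identifiers and RefSeq (GRCm38.p6), which held 34741 of them. Values were transformed as log2(signal + 16), which understates changes of dim genes. Probe sets with a mean above the 40th percentile were tested (27022, or 12580 genes by their brightest probe set) with limma 3.58.1 in R 4.3.3 (lmFit, eBayes with trend, two-sided, Benjamini-Hochberg over all tested features, threshold 0.05). All adjusted p come from it.

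The genes, lists and tests were chosen with earlier results of these data known. Named are the 10 genes, Kmt2a, and from each pathway list the genes past the threshold plus up to 3 with the smallest p, and the 3 nearest patterns. Kit and Cd48 were named after their values were seen. On simulated data the fit recovered 1 of 50 changes of 0.5 on the log2 scale and 27 of 50 changes of 1. It recovered 48 of 50 changes of 2 and 50 of 50 changes of 3, with 8 false calls among 134. In data like the simulated ones, a change near 0.5 would thus mostly be missed. These data held 694 calls where the simulated data held 134. The adjusted p depends on how many genes changed, so these recovery shares need not hold here. Alternatives were the offset, scaling, filter, probe set averaging, trend, a replicate block, the RNA quality covariate and leaving out each array.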

Additional observations from a re-analysis of the deposited data

Results flagged for a closer look

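Within each group of 5 arrays, the gap of the highest or lowest array to its neighbour was set against the group's range on the log2(signal + 16) scale, for 92 groups of values, where chance alone passes about 1 in 20. The critical value of 0.71 was passed 4 times on that scale, and the values printed are signals. For Tgfbr1, control replicate 2 read 124 at 1420895_at where the other controls lay between 213 and 236. At the dim Tgfbr1 probe set 1420893_a_at, control replicate 5 read 18.5 where the others lay between 0.457 and 1.96. For Smad6, control replicate 1 read 5.11 where the others lay between 41.5 and 68.2. For Ier3, Mll-deficient replicate 2 read 778 where the others lay between 694 and 710.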

How the results depend on the processing

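The 1 call among the 10 genes became 0 with quantile normalization, centring on the median, no filter, the mean of all probe sets and the replicate block, and 2 with the RNA quality covariate; without 1 array it was 0 to 1. Over the settings that kept all arrays, Skil stayed below 0, between -0.90 and -0.46. Member probe sets, of which 0 were called, gave 1 with offset 64, 1 with the 60th percentile filter and 2 with the covariate, and 0 to 1 without 1 array. The covariate raised the calls of the pathway lists from 5 to 15, of all genes from 694 to 1610 and of all probe sets from 887 to 2433, the latter being 588 with no filter; without 1 array they were 0 to 7, 307 to 873 and 303 to 1131. The count of all genes fell by over 1.5 times without control replicates 1 (360), 3 (392) or 4 (369) or Mll-deficient replicates 1 (445), 3 (353) or 5 (307), and without the same arrays the pathway lists gave 3, 1, 3, 1, 1 and 0. Centring on the median split the calls of all genes into 471 higher and 107 lower, beside 473 and 221. Probe set pairs went from 3 to 31 with offset 64, 46 with no filter, 1 with the 60th percentile filter and 27 with the covariate, and to 2 to 8 without 1 array. The cause was not tested.

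Some differences changed sign. Smad2 was at -0.0035 with offset 64, as was its probe set 1420634_a_at, Tgfb1 at -0.063 with the mean of all probe sets, and the Ski probe set 1426373_at at 0.0025 with centring. Without 1 array, ranges crossed 0 for Smad2 and 1420634_a_at (-0.26 to 0.14), Tgfb1 and 1420653_at (-0.0167 to 0.15), Tgfb1 1445360_at (-0.47 to 0.0296), Smad2 1442062_at (-0.15 to 0.23), Smad3 1450472_s_at (-0.37 to 0.0104), Ski 1426373_at (-0.19 to 0.16) and Skil 1422054_a_at (-0.21 to 0.0831).

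The replicate numbers gave no clear pairing of the arrays, but 5 correlations cannot exclude shared batches. In both groups replicate 5 had the highest 3′ ratio. The ratios ran from 1.73 to 2.91 in replicates 1 and 2 of both groups and from 2.46 to 3.64 in replicates 3 and 4. Whether neighbouring replicates shared a batch was not tested. Correlations of the deviations of same-numbered arrays ran from -0.182 to 0.24, and no control array correlated best with its own number. With the replicate block, 588 genes were called in place of 694, 6 of the pathway lists in place of 5 and 781 probe sets in place of 887.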
